A study of Arabidopsis thaliana with 4 samples.

Results

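Alpha-expansins are wall proteins of growing plant cells, and 10 of their genes were followed here in Arabidopsis seedlings with and without a working *ECT2* gene. The members are *EXPA1*, *EXPA3*, *EXPA4*, *EXPA5*, *EXPA6*, *EXPA8*, *EXPA9*, *EXPA10*, *EXPA11* and *EXPA15*. They were taken by locus identifier, from a list chosen with earlier results of these data known. They are 10 of 26 alpha-expansin genes and of 33544 genes listed. *ect2* seedlings carry a T-DNA insertion in *ECT2* in the Col-0 background, and Col-0 is the wild type. Both were 14 days old, raised on MS medium or soil in long days at 22 °C, with 2 libraries of poly(A)-selected RNA per genotype. The ECT2 protein has a YTH domain, with which it recognises N6-methyladenosine, a modified base of mRNA. The labels name neither the allele nor whether the replicates were separate pools of plants, so the spread behind every p-value may be technical. The values are FPKM, fragments scaled to transcript length and library size, a unit inferred from the tables.

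*ECT2* itself had 9.07 and 8.58 FPKM in the *ect2* libraries, against 137 and 76.7 FPKM in the Col-0 libraries, as the labels imply. Its fitted difference was -3.40 ± 0.33 (SE) on the log2(FPKM + 1) scale, with a limma adjusted p of 0.153. It passed the threshold without either Col-0 library, at -2.98 without replicate 1 and -3.81 without replicate 2. Between 18908 and 19114 genes reached 1 FPKM per library. Absolute depth is unknown; steps among low values put *ect2* replicate 1, *ect2* replicate 2 and Col-0 replicate 1 at 1.38, 0.972 and 1.46 times the depth of Col-0 replicate 2. The 4 leaf markers summed to 33559 and 37226 FPKM in *ect2* and to 34444 and 32489 FPKM in Col-0. Of these, *RBCS1A* and *RCA* were highest in Col-0 replicate 1, while *LHCB1.1* and *CAB3* were lowest there. The 6 root markers summed to 39.3 and 34.6 FPKM in *ect2* and to 38.8 and 31.5 FPKM in Col-0, and none of the 4 flower markers reached the minimum level for testing. The Col-0 libraries stood apart from each other. All 7 seed storage genes were highest in Col-0 replicate 1. Their sums were 8.36 and 7.86 FPKM in *ect2*, against 265 FPKM in Col-0 replicate 1 and 4.64 FPKM in Col-0 replicate 2. In Col-0 replicate 2, 3 of the 7 were listed at 0. The asparagine synthetase gene *ASN1* had 755 and 423 FPKM in *ect2*, against 5.49 FPKM in Col-0 replicate 1 and 315 FPKM in Col-0 replicate 2. The auxin-induced gene *IAA29* had 24.5 and 21.4 FPKM in *ect2*, against 1.20 and 10.5 FPKM in Col-0, and *SAUR19*, also auxin-induced, had 48.8 and 52.9 FPKM in *ect2*, above both Col-0 libraries, of which replicate 1 was lower. Col-0 replicate 2 was the high library for the stress-induced gene *ZAT12*, which had 10.3 and 41.5 FPKM in *ect2*, against 30.1 FPKM in Col-0 replicate 1 and 181 FPKM in Col-0 replicate 2. In whole seedlings, fewer cells of a type and less RNA per cell cannot be told apart.

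Expansins loosen the wall without cutting its polymers. They weaken the contacts between cellulose and xyloglucan so that turgor can stretch the wall, and they work best at acidic pH, which plasma membrane proton pumps provide. Auxin and brassinosteroid promote this acid growth. Xyloglucan endotransglucosylase/hydrolases (XTHs) cut and rejoin xyloglucan in the same walls, and cellulose synthase complexes lay down the fibrils that expansins loosen.

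All 10 genes are annotated in the RefSeq TAIR10.1 assembly, with 5 of them on chromosome 2; 7 of the chosen transcripts have 3 exons and 3 have 4. *EXPA1* (AT1G69530), the member with the highest mean level, lies at chr1:26141726-26143538 on the plus strand. *EXPA6* (AT2G28950) lies at chr2:12431338-12433796 and *EXPA4* (AT2G39700) at chr2:16543832-16545746, both on the minus strand. *EXPA8* (AT2G40610) is at chr2:16948791-16950705, *EXPA3* (AT2G37640) at chr2:15787523-15790139 and *EXPA15* (AT2G03090) at chr2:916806-918671, all on the minus strand. *EXPA11* (AT1G20190) occupies chr1:6998335-6999839 on the minus strand and *EXPA5* (AT3G29030) chr3:11011262-11013451 on the minus strand. *EXPA10* (AT1G26770) occupies chr1:9259432-9261313 and *EXPA9* (AT5G02260) chr5:463073-465273, both on the plus strand. No other annotated gene overlapped a member.

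The 3′ UTRs were searched for a 5-base motif linked to ECT2 binding, on the transcript strand. Its guanine forms are UGUAU and also UGUAC, and its adenine forms are UAUAU and also UAUAC. All 10 members held at least 1 match, and so did 81.6% of 23788 annotated 3′ UTRs. For each member, between 86.8% and 95.1% of 3′ UTRs of similar length held a match. The 47 matches fell into 34 stretches that do not overlap, because repeats of UA give overlapping matches; 29 of the 47 were UAUAU, 13 UGUAU, 4 UAUAC and 1 UGUAC. *EXPA9* had 11 matches in 433 nt, in 6 stretches, and *EXPA11* had 10 in 427 nt, in 9 stretches. For 3′ UTRs of like length the median was 3 matches, overlapping ones included. *EXPA1* and *EXPA6* had 6 matches each, in 296 and 502 nt and in 5 and 3 stretches. *EXPA3*, with 554 nt, and *EXPA15*, with 555 nt, had 1 match each, below the median of 4 for their length. A match is a string of letters, and binding or methylation there was not measured. The sites below show the guanine form in *EXPA1*, the member with the highest mean level, the only UGUAC match, in *EXPA11*, the guanine form in *EXPA10*, and the single adenine-form matches of the sparse UTRs, with the motif in capitals and 8 bases on either side.
EXPA1: gugucauuUGUAUcccuucuc
EXPA11: aacacauuUGUACuugguuuu
EXPA10: guaguuaaUGUAUuacugaug
EXPA3: uuaaaggcUAUAUuggcccag
EXPA15: uucgguuuUAUAUaguuuuag
They lie at chr1:26143344-26143364 (plus) in *EXPA1*, chr1:6998518-6998538 (minus) in *EXPA11*, chr1:9261006-9261026 (plus) in *EXPA10*, chr2:15787564-15787584 (minus) in *EXPA3* and chr2:917328-917348 (minus) in *EXPA15*. The motifs begin 152, 232, 222, 501 and 21 nt after the stop codon in that order.

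**Figure D1:**
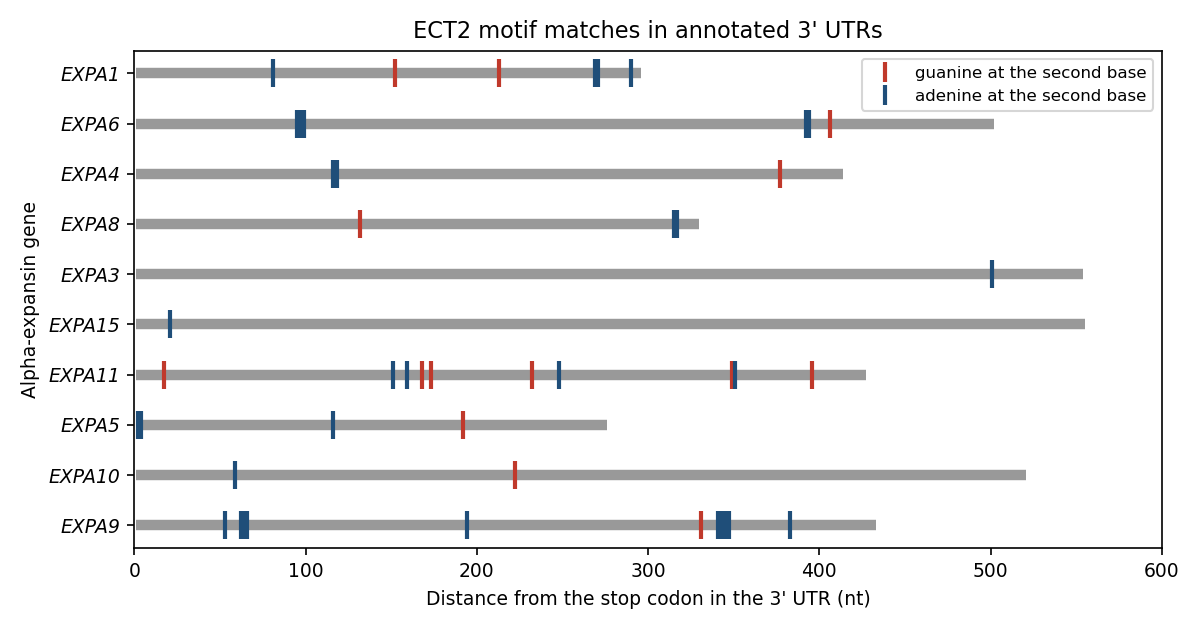
Matches of the ECT2-linked motif in the annotated 3′ UTRs of the 10 alpha-expansins, by distance from the stop codon in nt; grey bars give UTR length, red ticks matches with guanine at the second base and blue ticks those with adenine. *EXPA9* and *EXPA11* carry 11 and 10 matches, and *EXPA3* and *EXPA15* carry 1 each.

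The 250 bases before each annotated gene start were searched on both strands for 3 growth-related motifs. None of the 10 windows held the G-box CACGTG, which 6.49% of 27443 such windows held. The brassinosteroid response element (CGTGTG or CGTGCG) occurred in 2 windows, *EXPA1* and *EXPA6*, against 6.71% of all windows. The auxin response element (TGTCTC or TGTCGG) occurred in 3 windows, *EXPA5*, *EXPA6* and *EXPA10*, against 14.7% of all windows. The windows of *EXPA1*, the member with the highest mean level, and of *EXPA6*, the member closest to the typical pattern across libraries, are printed 5′ to 3′ on the gene's strand with the motif matches in capitals.
EXPA1: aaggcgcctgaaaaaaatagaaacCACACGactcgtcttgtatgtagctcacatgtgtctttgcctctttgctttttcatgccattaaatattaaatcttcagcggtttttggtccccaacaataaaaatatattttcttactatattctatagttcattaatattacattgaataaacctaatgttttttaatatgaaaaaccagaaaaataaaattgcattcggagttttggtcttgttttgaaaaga
EXPA6: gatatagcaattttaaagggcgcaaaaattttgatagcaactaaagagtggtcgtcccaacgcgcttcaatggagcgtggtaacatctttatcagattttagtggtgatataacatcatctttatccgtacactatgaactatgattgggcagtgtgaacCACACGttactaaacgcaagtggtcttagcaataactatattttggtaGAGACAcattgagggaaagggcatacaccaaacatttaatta
The *EXPA1* window is chr1:26141476-26141725 (plus) and its capitals mark CACACG, the brassinosteroid element read on the other strand, 226 bases before the start. The *EXPA6* window is chr2:12433797-12434046 (minus), with CACACG at 90 bases and GAGACA, the auxin element on the other strand, at 42 bases before the start.

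The coding sequences of the members were 61.1% to 79.2% identical over 45 pairs, with a median of 67.6%. The closest pairs were *EXPA1* and *EXPA10* at 79.2%, *EXPA4* and *EXPA6* at 77.7% and *EXPA3* and *EXPA9* at 76.7%. The longest exact run shared by any pair of members was 33 nt, in *EXPA10* and *EXPA15*. *EXPA4* was closer to *EXPA16*, no member, at 81.1%, with a shared run of 29 nt. The sources used here do not give how reads matching more than 1 gene were counted, so values of close pairs are uncertain to that extent.

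The 10 members made up most of the summed alpha-expansin level. Their summed level was 541 and 662 FPKM in *ect2*, against 1002 and 564 FPKM in Col-0, which was 87.5% and 91.4% of the whole family's sum in *ect2* and 94.2% and 90.3% in Col-0. Of the 16 other alpha-expansins, 7 reached the level needed for testing, and 6 were listed at 0 in every library. The members are not simply the most abundant 10: *EXPA13*, no member, had 19.8 and 19.0 FPKM in *ect2* and 21.0 and 17.9 FPKM in Col-0, above *EXPA9*.

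**Figure D2:**
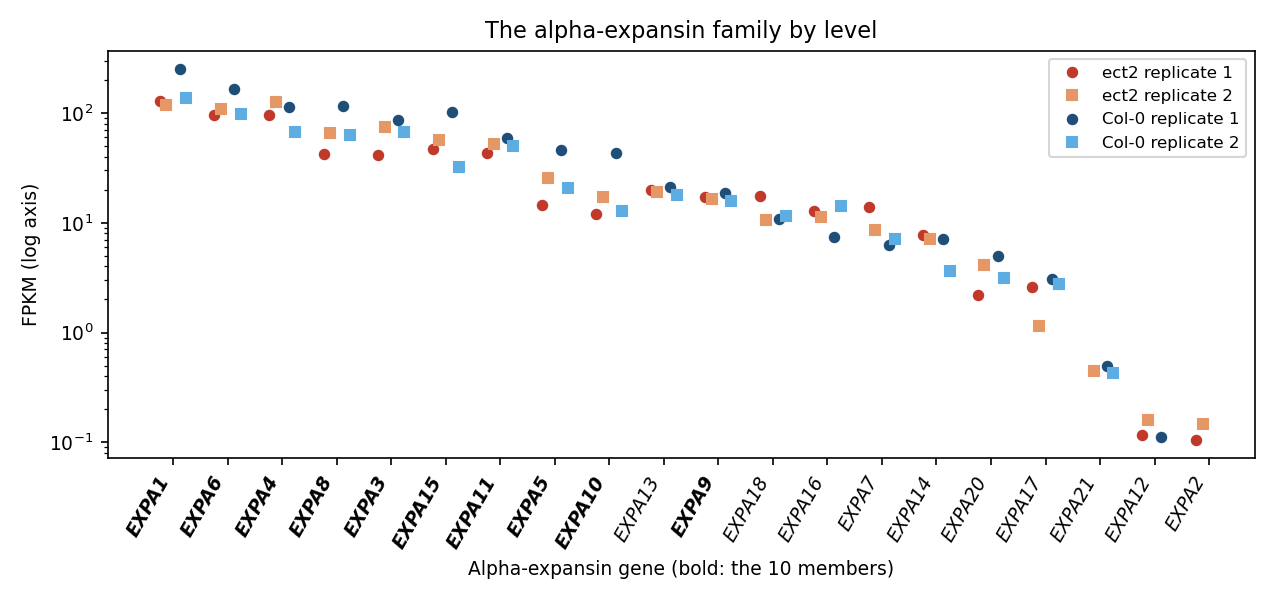
FPKM on a log axis of the 20 alpha-expansins listed above 0 in any library, ordered by mean, with 1 point per library, the *ect2* points left of the Col-0 points, and the 10 members in bold; a library at 0 has no point. The members run from a mean of 159 FPKM for *EXPA1* to 17.0 FPKM for *EXPA9*, with *EXPA13* just above the lowest member.

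Over all 4 libraries the mean level was 159 FPKM for *EXPA1*, 117 FPKM for *EXPA6* and 101 FPKM for *EXPA4*. *EXPA8* averaged 71.8 FPKM, *EXPA3* 67.7 FPKM, *EXPA15* 59.7 FPKM and *EXPA11* 51.2 FPKM. *EXPA5*, *EXPA10* and *EXPA9* were lowest, at 26.8, 21.3 and 17.0 FPKM. *EXPA1* ranked first in 3 of 4 libraries and second to *EXPA4* in *ect2* replicate 2. It was above *EXPA6* in all 4 libraries, *EXPA11* above *EXPA5* in all 4, and *EXPA5* above *EXPA10* in all 4. *EXPA8* and *EXPA3*, *EXPA3* and *EXPA15*, and *EXPA10* and *EXPA9* changed places, each order holding in 2 of 4 libraries. The other neighbours kept their order in 3 of 4. FPKM is per length, so levels of different genes can be set side by side.

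Among the 3 members with the highest means, *EXPA1*, which has been studied in guard cells, had 129 and 118 FPKM in *ect2*, against 251 and 136 FPKM in Col-0. It was the only member whose genotypes did not overlap, with both *ect2* libraries below both Col-0 libraries. *EXPA6* had 97.0 and 108 FPKM in *ect2*, against 165 and 97.8 FPKM in Col-0, and Col-0 replicate 1 was the high library. *EXPA4* had 96.5 and 127 FPKM in *ect2*, against 114 and 67.8 FPKM in Col-0, the only member highest in an *ect2* library.

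*EXPA8* had 42.6 and 65.3 FPKM in *ect2*, against 116 and 63.4 FPKM in Col-0, so *ect2* replicate 2 lay above Col-0 replicate 2. *EXPA3* had 41.5 and 75.0 FPKM in *ect2*, against 87.0 and 67.3 FPKM in Col-0. *EXPA15* had 47.2 and 56.5 FPKM in *ect2*, against 103 and 32.3 FPKM in Col-0, with the Col-0 libraries on either side of *ect2*. *EXPA11* varied little, with 43.1 and 52.7 FPKM in *ect2* and 59.1 and 50.1 FPKM in Col-0.

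*EXPA5*, which has been tied to brassinosteroid-dependent growth, had 14.7 and 25.5 FPKM in *ect2*, against 46.4 and 20.8 FPKM in Col-0. *EXPA10*, known for its effect on leaf and petiole size, had 12.1 and 17.1 FPKM in *ect2*, against 43.0 and 12.9 FPKM in Col-0. Its Col-0 libraries differed 3.34-fold, the widest gap of any member. *EXPA9* had 17.0 and 16.4 FPKM in *ect2* and 18.8 and 15.7 FPKM in Col-0, the narrowest spread in this set.

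**Figure D3:**
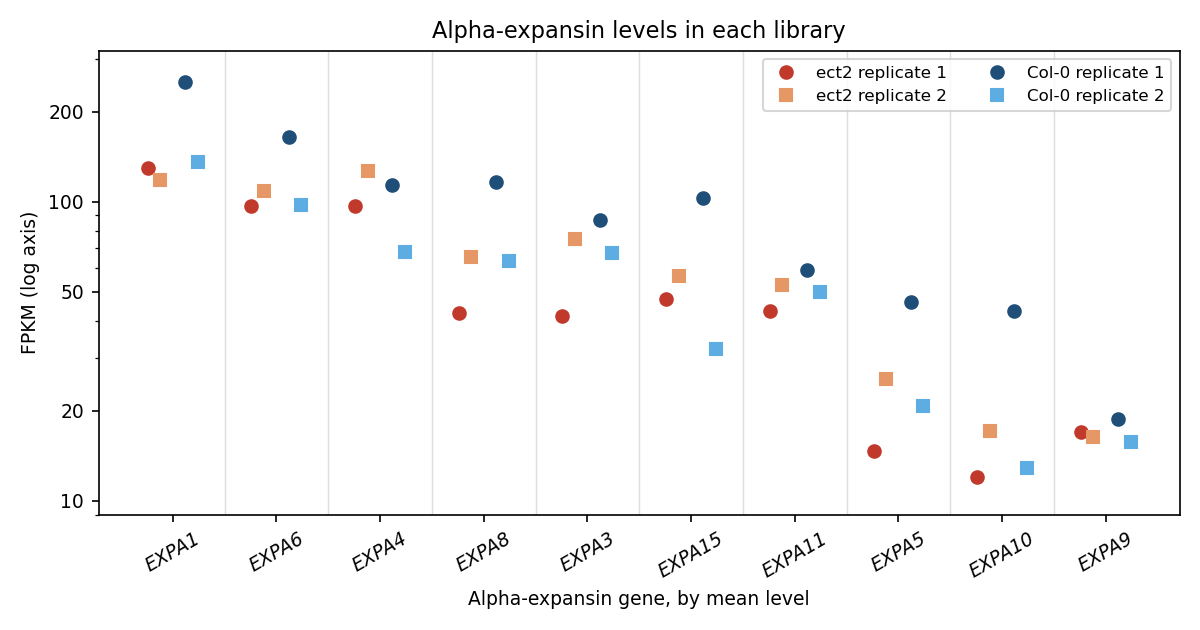
FPKM on a log axis of the 10 members by library, with the *ect2* points left of the Col-0 points; each point is 1 library. Col-0 replicate 1 is the highest library for 9 of 10 members, and *EXPA4* is highest in *ect2* replicate 2.

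The comparison of *ect2* with Col-0 gave no member a call: 0 of 10 passed an adjusted p of 0.05 in limma, where 0.0259% of 19308 genes did, and 0 of 10 had an unadjusted p under 0.05, where 4.86% of genes did. *EXPA1* averaged 124 ± 7.64 FPKM in *ect2* and 193 ± 80.9 FPKM in Col-0 (SD, n = 2 each). Its log2(FPKM + 1) difference, *ect2* minus Col-0, was -0.58 ± 0.33 (SE), with a 95% interval of -1.41 to 0.26 and a limma adjusted p of 0.842. *EXPA8* had the smallest p of the members, with 54.0 ± 16.1 FPKM in *ect2* and 89.7 ± 37.3 FPKM in Col-0 (SD, n = 2 each), a difference of -0.69 ± 0.38, an interval of -1.65 to 0.27 and a limma adjusted p of 0.842. *EXPA10* averaged 14.6 ± 3.58 FPKM in *ect2* and 27.9 ± 21.3 FPKM in Col-0, with a difference of -0.68 ± 0.59 and an interval of -2.23 to 0.87. *EXPA5* averaged 20.1 ± 7.69 FPKM in *ect2* and 33.6 ± 18.1 FPKM in Col-0, with a difference of -0.66 ± 0.47 and an interval of -1.85 to 0.54. Each of these 4 differences was smaller than the log2 gap between the Col-0 libraries, which was 0.88 for *EXPA1*, 0.86 for *EXPA8*, 1.66 for *EXPA10* and 1.12 for *EXPA5*.

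*EXPA4* was the only member with a positive difference, 0.33 ± 0.32, averaging 112 ± 21.6 FPKM in *ect2* and 90.8 ± 32.5 FPKM in Col-0. *EXPA3*, *EXPA6*, *EXPA11*, *EXPA15* and *EXPA9* had differences of -0.45, -0.30, -0.19, -0.16 and -0.04. The *EXPA9* interval was the narrowest, -0.61 to 0.52, and the intervals of *EXPA10* and *EXPA15* were the widest. Limma adjusted p-values ran from 0.842 to 0.976 over the 10 members. The ratio of mean FPKM, *ect2* over Col-0, ran from 0.522 for *EXPA10* to 1.23 for *EXPA4*. Intervals this wide do not show that the members were unchanged.

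The fitted difference was negative for 9 of 10 members, against 51.2% of all genes tested, and its median was -0.38 against -0.0096 over all genes. Both *ect2* libraries lay below both Col-0 libraries for 1 of 10 members, against 20.2% of all genes. Col-0 replicate 1 held the highest value for 9 of 10, against 31.2% of all genes, and lay above Col-0 replicate 2 for 10 of 10, against 45.5%. The gap between the Col-0 libraries was 1.18-fold for *EXPA11*, 1.84-fold for *EXPA1* and 3.18-fold for *EXPA15*. Within *ect2*, replicate 1 was below replicate 2 for 8 of 10 members, the exceptions being *EXPA1* and *EXPA9*, against 43.7% of all genes. The 10 genes share these libraries and are not independent observations of the genotypes.

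Without Col-0 replicate 1 the median difference of the members was -0.00047, and 5 of 10 were negative. *EXPA3* and *EXPA8* were then the most negative, both at -0.26, followed by *EXPA1* at -0.14, *EXPA5* at -0.10 and *EXPA11* at -0.07. *EXPA6*, *EXPA9* and *EXPA10* were at 0.07, 0.08 and 0.15, and *EXPA15* and *EXPA4* at 0.66 and 0.70. None passed the adjusted threshold in limma, where 0.0579% of 19014 genes did, and 2 of 10, *EXPA4* and *EXPA15*, had an unadjusted p under 0.05, where 6.46% of genes did. Without Col-0 replicate 2 the median was -0.83 and 10 of 10 were negative. No member passed then either, where 2.74% of 18988 genes did; 6 of 10 had an unadjusted p under 0.05, where 20.8% of genes did, and *EXPA10* had the smallest limma adjusted p, 0.0507. In each of these fits the lone Col-0 library is assumed to vary like the *ect2* pair. The fits without Col-0 replicate 1 rest on the library with high *ZAT12*, and those without Col-0 replicate 2 on the library with seed storage signal; the part of either in these differences was not tested.

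**Figure D4:**
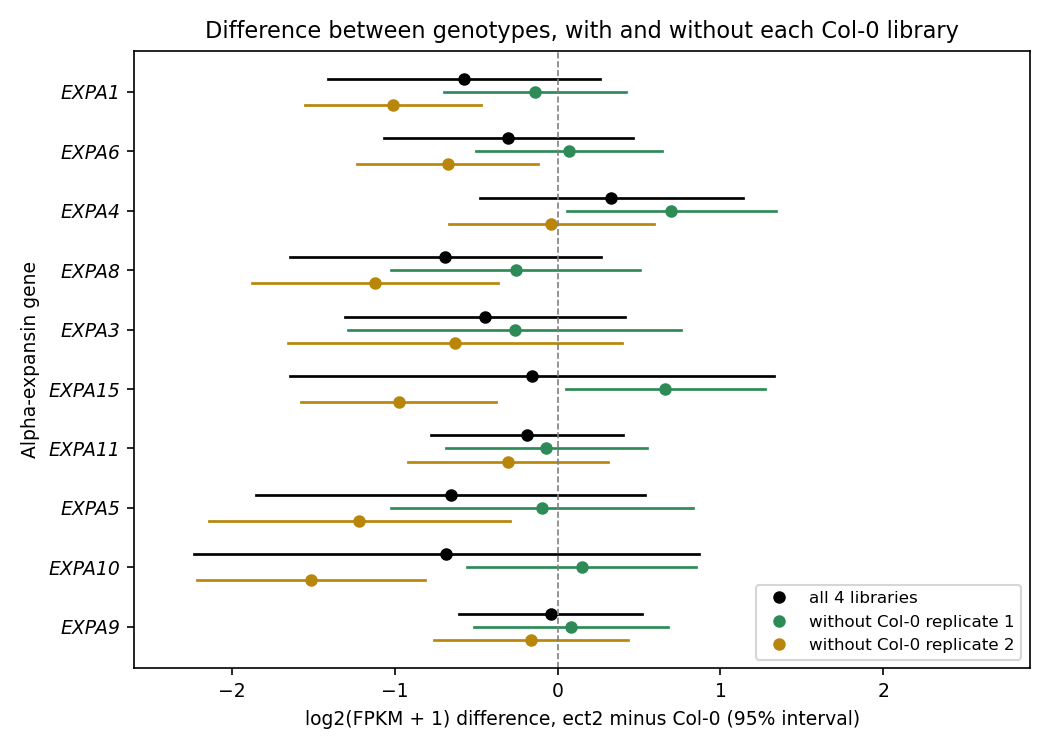
Difference in log2(FPKM + 1), *ect2* minus Col-0, for the 10 members with 95% intervals, from all 4 libraries (black), without Col-0 replicate 1 (green) and without Col-0 replicate 2 (gold). The median lies at -0.38 with all libraries, near 0 without Col-0 replicate 1 and at -0.83 without Col-0 replicate 2.

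The rest of the expansin superfamily showed no common direction. Among the other alpha-expansins, 5 of 7 tested genes had a positive difference, where 9427 of 19308 genes did. The median was 0.20, and none passed in either direction. Of the 5, *EXPA13* was at 0.00039, and the count was 4 of 7 with equal library medians or quantile normalization. *EXPA7* and *EXPA18* are known from root hairs. *EXPA7* had 14.1 and 8.60 FPKM in *ect2*, against 6.21 and 7.18 FPKM in Col-0, a difference of 0.65 ± 0.29 with a limma adjusted p of 0.842. *EXPA18* had 17.6 and 10.7 FPKM in *ect2*, against 10.7 and 11.5 FPKM in Col-0. *EXPA17*, known from emerging lateral roots, had 2.58 and 1.15 FPKM in *ect2*, against 3.06 and 2.78 FPKM in Col-0. The 6 tested beta-expansin and expansin-like genes split 3 to 3, with a median of 0.0010 and no call; without Col-0 replicate 2, when 2.74% of all genes were called, 2 of the 6 were. *EXLA1*, an expansin-like gene, had 132 and 137 FPKM in *ect2*, against 12.4 and 114 FPKM in Col-0. *EXPB1*, a beta-expansin with the smallest p of the 6, had 3.82 and 6.71 FPKM in *ect2*, against 12.6 and 6.79 FPKM in Col-0. Its difference was -0.76 ± 0.38. Col-0 replicate 1 was the highest library for 3 of the 6, against 31.2% of all genes, and the lowest for the other 3, against 36.0%.

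Most of the XTHs ran opposite to the members in Col-0 replicate 1. Of 33 genes 27 were tested, 18 had a positive difference, the median was 0.50 and none passed the adjusted threshold in limma; *XTH31* alone had an unadjusted p under 0.05. Their summed level was 2835 and 3454 FPKM in *ect2*, against 1540 FPKM in Col-0 replicate 1 and 3549 FPKM in Col-0 replicate 2. Col-0 replicate 1 was the lowest library for 16 of 27, against 36.0% of all genes. *XTH24* had 333 and 353 FPKM in *ect2*, against 43.9 and 211 FPKM in Col-0. *XTH31*, 1 of 4 XTHs highest in Col-0 replicate 1, had 27.1 and 28.8 FPKM in *ect2*, against 79.0 and 41.6 FPKM in Col-0. Both *ect2* libraries lay below both Col-0 libraries for 1 of 27 XTHs, *XTH31*, and 1 of 10 members, *EXPA1*, against 20.2% of all genes. They lay above both for 8 of 27 XTHs, *XTH24* among them, and 0 of 10 members, against 3374 of 19308 genes. Without Col-0 replicate 1 the XTH median was -0.02, and without Col-0 replicate 2 it was 0.64, with 6 genes of 27 called, where 2.74% of all genes were.

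Other genes of acid growth and wall synthesis also gave no call. The 7 tested proton pump genes had a median difference of -0.06, 2 of them positive, and none passed. Of 8 tested genes of primary-wall cellulose synthesis 7 had a positive difference, with a median of 0.28 and no call; *CESA6* had 72.0 and 67.7 FPKM in *ect2*, against 50.2 and 49.8 FPKM in Col-0, a difference of 0.47 with a limma adjusted p of 0.842. That median was 0.26 without Col-0 replicate 1. The 10 brassinosteroid and bHLH growth regulators had a median of 0.31, 8 of them positive and none called, and 8 of 10 were lowest in Col-0 replicate 1; without that library their median was 0.05. The difference between Col-0 replicates 1 and 2 had a median of 0.80 in the members, 0.10 in the other alpha-expansins, -0.76 in the XTHs, -0.43 in the growth regulators and -0.05 over all genes.

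**Figure D5:**
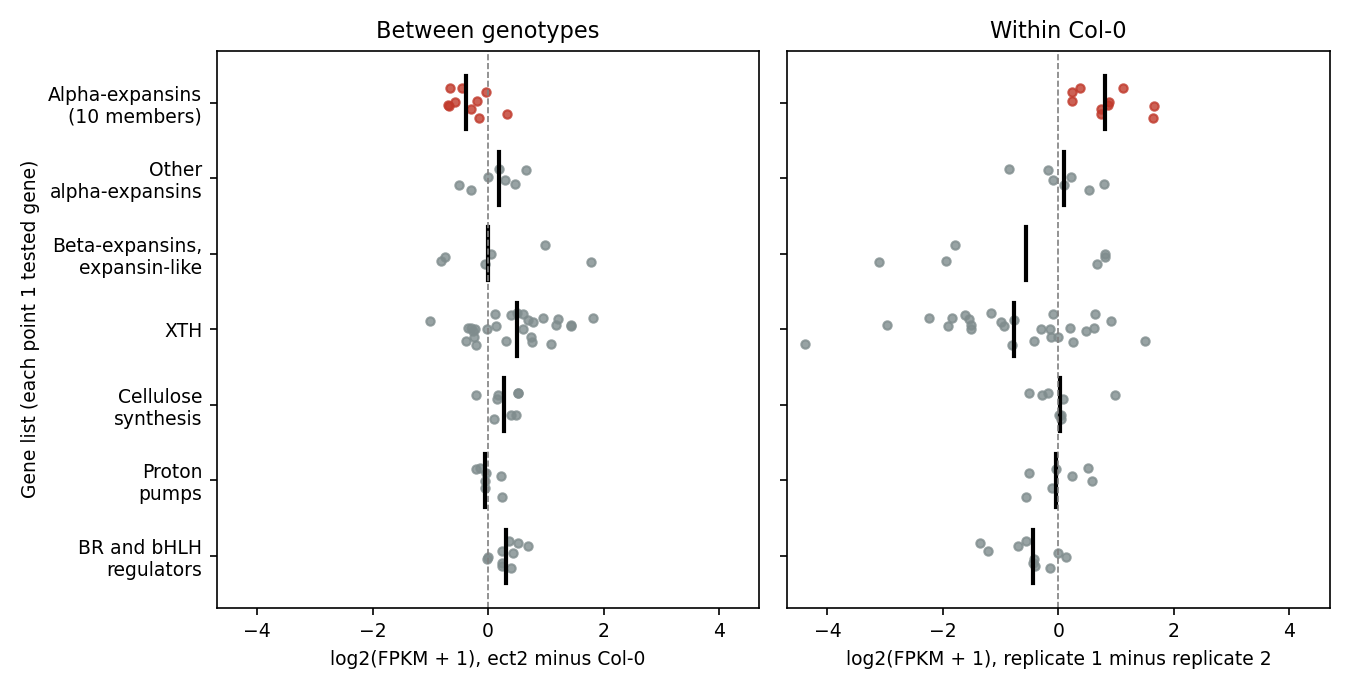
Difference in log2(FPKM + 1) of each tested gene of the 10 members and 6 other lists, *ect2* minus Col-0 (left) and Col-0 replicate 1 minus Col-0 replicate 2 (right), with bars at the medians. Of the members, 9 of 10 lie below 0 on the left (median -0.38) and all 10 above 0 on the right (median 0.80); the XTHs fall on both sides of 0 in both panels, with medians of 0.50 and -0.76.

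The pattern over the 4 libraries was compared between genes after centring each on its own mean. The median profile of the members was -0.23 and 0.0028 in *ect2*, against 0.62 and -0.19 in Col-0. *EXPA6* was nearest to it, with a root mean square distance of 0.0651 (log2), and *EXPA10* farthest, at 0.362. Of 65 tested genes of the other lists, *CESA5*, a cellulose synthase subunit, was nearest at 0.101, with 14.8 and 16.7 FPKM in *ect2*, against 26.2 and 12.8 FPKM in Col-0. *EXPB3*, a beta-expansin, followed at 0.169, with 90.2 and 120 FPKM in *ect2*, against 137 and 85.4 FPKM in Col-0. *EXPA20* came next at 0.188, with 2.22 and 4.10 FPKM in *ect2*, against 4.99 and 3.14 FPKM in Col-0. With only 4 libraries, nearness says little of any 1 gene, and 0.767% of all tested genes were at least as near as *CESA5*.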

How the data were processed

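Whole-seedling RNA was extracted with TRIzol, selected on oligo(dT) beads and made into NEBNext Ultra libraries, per the labels' protocols. The submitters' processing notes name cutadapt, TopHat and the TAIR10 build. Quantifier, annotation release, strand use and scaling are not given in the sources used. Each library has its own table deposited by the authors, read here as FPKM, a unit inferred from the header and the values.

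A gene entered the test when 2 or more of the 4 libraries had at least 1 FPKM, which left 19308 of 33544. The limma package (3.58.1, R 4.3.3) was fitted to log2(FPKM + 1), robustly and with a trend on level. Two-sided p-values received Benjamini-Hochberg adjustment across those genes, and 0.05 was the threshold. All 10 members passed the minimum. Differences on this scale understate changes of low genes.

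The 13 gene lists (125 genes), of which the members are 1, were chosen with earlier results of these data known. Named genes are the members, *ECT2* and the 4 genes with the smallest p in each list. The 3 genes of the wall and growth lists with the nearest profile are named too. Of all these, some are described. *EXPA13* was named after its values were seen, and *EXPA16* for its identity to *EXPA4*. Gene models and 3′ UTRs come from RefSeq TAIR10.1, using the transcript with the longest coding sequence among those with a 3′ UTR. Upstream windows, also from TAIR10.1, end at the annotated gene start, whichever transcript was chosen. The deposited data hold no coordinates. Coding sequences were aligned with Biopython 1.88. The 10 alternatives were another pseudocount, no minimum, 2 other scalings, no trend, the replicate number as a block and leaving out each library.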

Additional observations from a re-analysis of the deposited data

How the results depend on the processing

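No member was called by limma with all libraries or under any of 10 alternatives. Leaving out 1 library at a time changed the sign of 5 members: *EXPA4* ranged from -0.039 to 0.70, *EXPA6* from -0.68 to 0.068, *EXPA9* from -0.16 to 0.079, *EXPA10* from -1.52 to 0.15 and *EXPA15* from -0.98 to 0.66. The lone library of a genotype is assumed to vary like the other genotype's pair. The median difference of the members ranged from -0.83 without Col-0 replicate 2 to -0.00047 without Col-0 replicate 1, and was -0.15 and -0.45 without *ect2* replicates 1 and 2. Of the members' differences under the alternatives, 95 kept their direction and 5 reversed. The replicate block, no minimum and no trend cannot change a member's fitted difference, so their share of the 95 was fixed beforehand. The median was -0.38 with pseudocount 0.1, -0.38 with no minimum, -0.41 with equal library medians and -0.35 with quantile normalization.

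With the replicate block, 0 members and 6 genes in all were called. The members' median stayed at -0.38, as it must in this balanced design. The labels do not say whether same-numbered libraries were handled together. Replicate differences of *ect2* and Col-0 correlated at 0.0138 over 19308 genes, which with 2 libraries per genotype cannot settle pairing. With 2 libraries per genotype the number of libraries, and the spread between the Col-0 libraries, limit what can be called, and absolute depth is unknown.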
